A study of Homo sapiens with 6 samples.

Results

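A block of 6 neighbouring genes at the tip of the short arm of chromosome 9 (band 9p24) was followed across 3 human cell lines: DOCK8, KANK1, DMRT1, DMRT3, DMRT2 and SMARCA2, in that order from the telomere. They are 6 of the 61498 genes measured. They were chosen to follow how far a rise in RPMI-8226-R over RPMI-8226 extends, with that difference already known. Every value that compares these 2 lines for them is therefore a description and carries no test. RNA-seq was made from total RNA after removal of ribosomal RNA, with 2 libraries for each line and between 23952370 and 29052199 estimated reads for a library. RPMI-8226 is a multiple myeloma line, RPMI-8226-R is its derivative that resists the proteasome inhibitor bortezomib, and NCI-BL2171 is labelled as B lymphocytes; all 6 libraries are from untreated cells, and the labels give neither how RPMI-8226-R was selected nor whether it is 1 clone. The libraries of a line are not said to come from separate cultures, so p-values measure the spread between these libraries only, which may be technical.

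The labels were set against marker genes. Plasma cell markers (8 genes) summed to between 55200 and 57820 TPM (a level corrected for gene length and scaled to the library) in RPMI-8226. For RPMI-8226-R the sum was between 33540 and 34600 TPM, and all 8 markers were at 1 TPM or more in both lines. Most of each sum was IGLC2, at 52110 and 54590 TPM in the parental libraries and 29100 and 30030 TPM in those of the derivative. MZB1 and PRDM1 were also lower in the derivative, whereas JCHAIN, SDC1, XBP1, TNFRSF17 and IRF4 were higher there in both libraries. In the libraries labelled NCI-BL2171, B cell markers (8 genes) summed to between 5.07 and 5.08 TPM with MS4A1, PAX5 and BLK at 0, whereas red cell lineage markers (9 genes) summed to between 49710 and 51980 TPM. These libraries therefore lack defining markers of the cell type on their label, and they are called below by the label alone.

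DMRT1, DMRT2 and DMRT3 encode transcription factors with a DM domain, a zinc-binding DNA-binding domain first known from sex determination in flies and worms. DMRT1 acts in Sertoli cells and germ cells and keeps the testis male, DMRT2 acts in somites and muscle precursors, and DMRT3 acts in interneurons of the spinal cord that coordinate gait. On the telomeric side of the trio, DOCK8 encodes an exchange factor that activates the GTPase CDC42 in leukocytes and is lost in a combined immunodeficiency, and KANK1 encodes an adaptor that links talin at adhesions to microtubules at the cell cortex. On the other side, SMARCA2 encodes BRM, an ATPase of the SWI/SNF chromatin remodelling complexes.

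All 6 genes lie on the plus strand (GENCODE 29, GRCh38). DOCK8 (ENSG00000107099.18) spans chr9:214854-465259 and KANK1 (ENSG00000107104.21) chr9:470291-746106. DMRT1 (ENSG00000137090.12) spans chr9:841690-969090, DMRT3 (ENSG00000064218.5) chr9:976964-991731 and DMRT2 (ENSG00000173253.16) chr9:1049858-1057552. SMARCA2 (ENSG00000080503.24) spans chr9:1980290-2193624. DOCK8 and KANK1 are 5031 bases apart, KANK1 and DMRT1 95583, DMRT1 and DMRT3 7873, DMRT3 and DMRT2 58126, and DMRT2 and SMARCA2 922737.

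The sequence just before the start of KANK1, DMRT1 and DMRT3 is shown because these are 3 of the 4 adjacent genes whose level was higher in RPMI-8226-R, and DMRT1 and DMRT3 had the largest differences of the 6. Each window holds the 200 bases from 250 to 51 before the start of the RefSeq gene (RefSeq, GRCh38.p14, plus strand), 5′ to 3′: chr9:470045-470244 for KANK1, chr9:841447-841646 for DMRT1 and chr9:976405-976604 for DMRT3. RefSeq lists 4 windows for KANK1, 2 for DMRT1 and 1 for DMRT3, 1 for each annotated start, and the window nearest the telomere is shown. RefSeq and GENCODE do not always start a gene at the same base. Capitals mark GGGCGG, the letters of a GC box.
KANK1: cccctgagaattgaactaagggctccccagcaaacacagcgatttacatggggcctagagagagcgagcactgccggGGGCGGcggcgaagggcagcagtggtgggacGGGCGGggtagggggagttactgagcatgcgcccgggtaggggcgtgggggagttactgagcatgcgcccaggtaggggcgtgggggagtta
DMRT1: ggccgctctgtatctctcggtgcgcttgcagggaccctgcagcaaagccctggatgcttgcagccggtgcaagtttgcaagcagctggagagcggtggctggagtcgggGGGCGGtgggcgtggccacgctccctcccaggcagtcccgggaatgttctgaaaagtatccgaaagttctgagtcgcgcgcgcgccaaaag
DMRT3: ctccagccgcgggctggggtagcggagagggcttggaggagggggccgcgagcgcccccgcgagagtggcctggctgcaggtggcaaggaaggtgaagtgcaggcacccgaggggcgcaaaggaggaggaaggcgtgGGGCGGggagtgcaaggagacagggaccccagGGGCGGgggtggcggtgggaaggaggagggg
These windows hold 65.5% (KANK1), 64.0% (DMRT1) and 73.5% (DMRT3) G and C, beside a median of 57.5% over 35116 windows of the same length from 27305 genes. GGGCGG, searched on both strands, was found 2 times before KANK1, 1 time before DMRT1 and 2 times before DMRT3, and at least once in 35.0% of all windows. The DMRT1 match lies 141 to 136 bases before the start.

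The corresponding windows of DMRT2 (1 of 3 listed), DOCK8 (1 of 2) and SMARCA2 (1 of 4) overlap an exon annotated in GENCODE, and those of DMRT2 and SMARCA2 lie inside the GENCODE span of the gene, so they are described by motif counts alone. The other windows listed for these genes were not described. The DMRT2 window had no GGGCGG and 2 copies of CCAAT (the CCAAT box), which 27.4% of all windows held at least once and 7.1% at least 2 times; none of the other 5 windows held CCAAT. DOCK8 had 1 match to GGGCGG and SMARCA2 had 2. TATAAA, the letters of a TATA box, was in none of the 6 windows and in 7.6% of all windows. GATACAT, a core of the motif that DM domain proteins bind, was also in none of the 6 and in 1.0% of all windows. No match overlapped another. The windows of the 6 genes held between 13 and 32 CG dinucleotides, all above the median of 8 over all windows.

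DMRT1 was close to silent in RPMI-8226 and expressed in RPMI-8226-R. It had 20 and 21 reads in the RPMI-8226 libraries, 558 and 512 in RPMI-8226-R and 0 in both libraries labelled NCI-BL2171. As CPM (reads scaled to the size of the library, here after TMM normalisation, and not corrected for gene length) it stood at 0.744 and 0.830 in RPMI-8226 and at 20.7 and 17.7 in RPMI-8226-R. Both RPMI-8226-R libraries were far above both RPMI-8226 libraries, and the means of 0.787 ± 0.0612 and 19.2 ± 2.09 CPM (SD, n = 2 each) differed 24.4-fold, or 4.60 ± 0.22 on the log2 scale (edgeR estimate ± SE). In bulk RNA, more cells that express a gene and more RNA per cell cannot be told apart.

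DMRT3, the next gene along, had nearly the same profile. Its reads were 17 and 16 in RPMI-8226, 482 and 455 in RPMI-8226-R and 0 in both libraries labelled NCI-BL2171. Its level was 0.6321 and 0.6325 CPM in RPMI-8226 and 17.9 and 15.8 CPM in RPMI-8226-R, a 26.6-fold difference of the means (log2 4.72 ± 0.24). The lines did not overlap. Within a library, DMRT1 had 1.18 and 1.31 times the reads of DMRT3 in RPMI-8226 and 1.16 and 1.13 times in RPMI-8226-R. As a ratio of TPM this was 1.43 and 1.60 in RPMI-8226 and 1.17 and 1.12 in RPMI-8226-R. The length given to DMRT3 was 2493 bases in both RPMI-8226 libraries and 2145 and 2091 bases in those of RPMI-8226-R. The parental ratios and that length rest on between 16 and 21 reads for a gene, too few to say whether the ratio differs between the lines.

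DMRT2 differed from the other DM domain genes of the trio in that it was already expressed in the parental line. It had 322 and 276 reads in RPMI-8226, 726 and 796 in RPMI-8226-R and 0 in both libraries labelled NCI-BL2171. Its level was 11.97 and 10.91 CPM in RPMI-8226 and 26.9 and 27.6 CPM in RPMI-8226-R, with no overlap and a 2.38-fold difference of the means (log2 1.25 ± 0.13). On the TPM scale, which allows genes to be set side by side, the 3 genes stood at 0.319 ± 0.0163 (DMRT1), 0.211 ± 0.00636 (DMRT3) and 4.81 ± 0.781 (DMRT2) in RPMI-8226. In RPMI-8226-R they stood at 10.0 ± 0.643, 8.76 ± 0.255 and 13.02 ± 0.404 TPM (SD, n = 2). In the derivative DMRT1 lay above 51% of the protein-coding genes tested, DMRT3 above 48.2% and DMRT2 above 56.3%, beside 11.5%, 9.3% and 40.8% in the parent.

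KANK1, on the telomeric side of DMRT1, was also higher in RPMI-8226-R. Its reads were 176 and 190 in RPMI-8226, 459 and 586 in RPMI-8226-R and 41 and 48 in the libraries labelled NCI-BL2171. In CPM these were 6.54 and 7.51, 17.0 and 20.3, and 1.51 and 1.93, so that the 3 lines did not overlap. The RPMI-8226-R mean was 2.66-fold that of RPMI-8226 (log2 1.41 ± 0.16).

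DOCK8, which ends 5031 bases before KANK1 begins, went the other way. It had 286 and 272 reads in RPMI-8226, 208 and 258 in RPMI-8226-R and 641 and 520 in the libraries labelled NCI-BL2171. Its level was 10.6 and 10.8 CPM in RPMI-8226, 7.72 and 8.94 CPM in RPMI-8226-R, and 23.5 and 21.0 CPM in the libraries labelled NCI-BL2171. The lines did not overlap, and RPMI-8226 was 1.28-fold above RPMI-8226-R (log2 -0.36 ± 0.14, RPMI-8226-R over RPMI-8226). On the TPM scale DOCK8 (2.79 and 3.21) and KANK1 (2.53 and 3.31) overlapped in RPMI-8226, whereas in RPMI-8226-R KANK1 (5.81 and 6.29) lay above DOCK8 (1.49 and 2.22).

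SMARCA2 had the highest TPM of the 6 genes in every library. Its reads were 3426 and 3280 in RPMI-8226, 2042 and 2553 in RPMI-8226-R and 1085 and 1057 in the libraries labelled NCI-BL2171. In CPM it was at 127.4 and 129.7 in RPMI-8226 and at 75.75 and 88.45 in RPMI-8226-R, a 1.57-fold lower mean without overlap (log2 -0.65 ± 0.08). This direction did not hold in TPM, where RPMI-8226-R had 41.0 and 61.9 TPM, on either side of the 47.6 and 51.7 TPM of RPMI-8226.

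**Figure D1:**
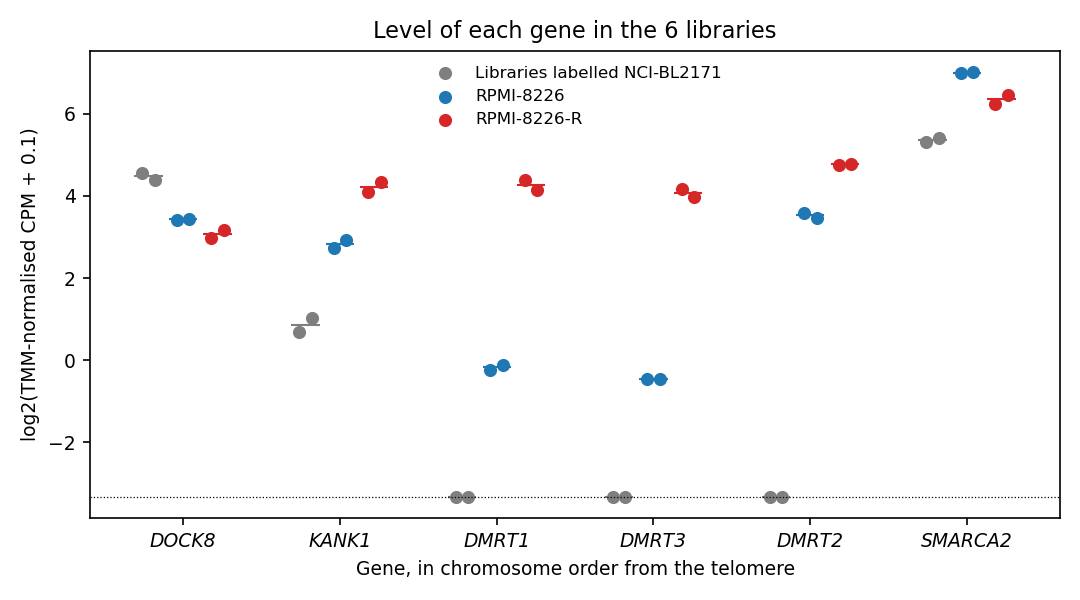
Level of each of the 6 genes in every library, as log2(TMM-normalised CPM + 0.1), with genes in chromosome order, 1 point for a library and a short line at the mean of the points of a line; the dotted line marks a count of 0. DMRT1 and DMRT3 go from below 1 CPM in RPMI-8226 to between 15.8 and 20.7 CPM in RPMI-8226-R, and the 3 DM domain genes have no read in the libraries labelled NCI-BL2171.

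The higher level in RPMI-8226-R thus covered KANK1, DMRT1, DMRT3 and DMRT2 and was not seen at DOCK8 or SMARCA2 on either side. At least a 2-fold higher fitted level was found for these 4 of the 6 genes and for 13.0% of all 20081 genes tested, and since the genes were chosen on this difference nothing is read from that share. Ordered by fold change among the 20081 genes, DMRT3 was at rank 89 and DMRT1 at rank 99, KANK1 at 1495, DMRT2 at 1874, DOCK8 at 11749 and SMARCA2 at 13463. Along the genome, a run of at least 4 consecutive tested protein-coding genes, each at least 2-fold higher in RPMI-8226-R, occurred 16 times, and KANK1 to DMRT2 was 1 of them. Of the 16 runs, 6 held 5 or more genes, the longest held 7, and 3 held at least 2 genes that were at least 16-fold higher. The ranks and runs rest on the same difference that chose the genes, so nothing is read from them either.

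Some of these differences depended on the length given to a gene. The deposited tables give each gene a length for each library, which follows the isoforms that the reads were assigned to. DOCK8 had a length of 3362 and 2889 bases in RPMI-8226 and of 5491 and 4630 bases in RPMI-8226-R, a ratio of 1.62, and KANK1 went from 2296 and 1968 to 3168 and 3701 bases, a ratio of 1.61. Ratios of 1.5 or more were found for 4.62% of the genes tested, whose median was 1.00. DMRT1 kept its length (ratio 0.999), and the ratio was 0.850 for DMRT3, 1.15 for DMRT2 and 0.820 for SMARCA2.

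With the effective length of each gene in each library as an offset in the fit, DOCK8 was at log2 -1.03 and KANK1 at 0.73 (RPMI-8226-R over RPMI-8226), both further down than in the counts. KANK1 was then below 2-fold, so the run of adjacent genes at least 2-fold higher held DMRT1, DMRT3 and DMRT2. DMRT1 (4.65), DMRT3 (5.04) and DMRT2 (1.11) remained higher, and SMARCA2 was at -0.29. On log2(TPM + 1), which understates the change of genes with low levels, the differences were 3.06 for DMRT1, 3.01 for DMRT3, 1.28 for DMRT2, 0.85 for KANK1, -0.50 for DOCK8 and 0.02 for SMARCA2. The median gene moved up by 0.36 between the count scale and this one, and relative to that shift SMARCA2 was at -0.34, DOCK8 at -0.86 and KANK1 at 0.49. Which isoforms of DOCK8 and KANK1 the reads came from was not tested.

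**Figure D2:**
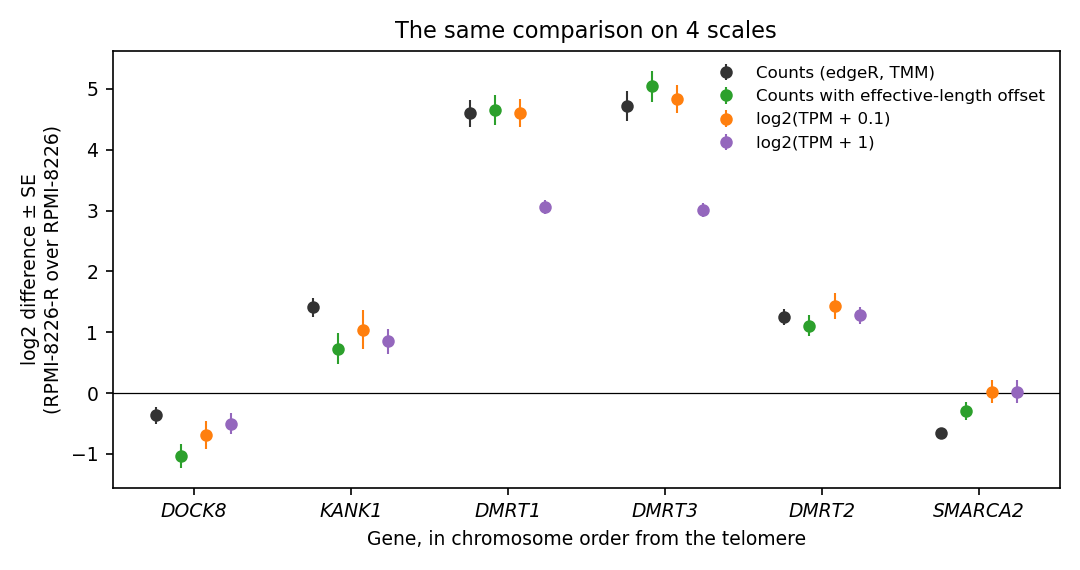
Difference between RPMI-8226-R and RPMI-8226 for the 6 genes on 4 scales, as log2 difference ± SE on the vertical axis and genes in chromosome order: counts, counts with an effective-length offset, log2(TPM + 0.1) and log2(TPM + 1). DMRT1, DMRT3, DMRT2 and KANK1 lie above 0 and DOCK8 below 0 on all 4 scales, whereas SMARCA2 goes from -0.65 in counts to 0.02 in TPM.

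RPMI-8226 was then compared with the libraries labelled NCI-BL2171, a contrast that did not choose the genes but shares the RPMI-8226 libraries with the one that did. In this comparison 76.7% of the 20081 genes passed the edgeR quasi-likelihood test at an adjusted p of 0.05, so that passing it was the common outcome. DOCK8, known for its role in leukocytes, was 2.08-fold lower in RPMI-8226 (log2 -1.06 ± 0.13, edgeR adjusted p = 2.3e-07). SMARCA2 was 3.12-fold higher in RPMI-8226 (128.5 ± 1.61 against 41.2 ± 1.95 CPM, log2 1.64 ± 0.08, edgeR adjusted p = 5.4e-14), and KANK1 was 4.09-fold higher (7.03 ± 0.684 against 1.72 ± 0.303 CPM, log2 2.03 ± 0.20, edgeR adjusted p = 1.1e-08). The size for KANK1 depended on the scale, at 1.61 with the length offset and 0.88 on log2(TPM + 1). On these scales SMARCA2 was at 2.2 and 1.91, and DOCK8 at -1.02 and -1.0.

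The DM domain genes had no read in either library labelled NCI-BL2171, where 3 counts in a library would be 0.110 and 0.121 CPM. Against that floor DMRT2 was at least 99.1-fold higher in RPMI-8226, DMRT1 at least 6.81-fold higher and DMRT3 at least 5.48-fold higher. The 3 genes passed the low-count filter through the RPMI lines alone, which made a difference in this direction inevitable, so no test is given for them. Floors cover counting error only.

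Set beside the libraries labelled NCI-BL2171, which are compared here without a test, RPMI-8226-R had at least 166-fold more DMRT1, at least 146-fold more DMRT3 and at least 236-fold more DMRT2 in CPM. KANK1 was 10.9-fold and SMARCA2 1.99-fold higher in RPMI-8226-R, and DOCK8 was 2.67-fold higher in the libraries labelled NCI-BL2171. The order of the lines in CPM was the same for KANK1 and the 3 DM domain genes: highest in RPMI-8226-R, then RPMI-8226, then NCI-BL2171. DOCK8 had the reverse order and SMARCA2 was highest in RPMI-8226. In none of these orders did libraries of neighbouring lines overlap in CPM, as was also the case for 80.6% of all genes between RPMI-8226-R and RPMI-8226 and for 88.4% between RPMI-8226 and NCI-BL2171.

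The genes most like DMRT1 and DMRT3 across the 6 libraries were sought among 9999 protein-coding genes with at least 5 TPM in a line, by the root mean square difference of log2(CPM + 1) after centring each gene on its own mean. DMRT1 and DMRT3 were each the gene nearest to the other, at 0.0796, beside a median of 1.91 over all candidates for DMRT1 and 1.86 for DMRT3. Next for DMRT1 came CHST4 (0.156), a sulfotransferase of lymph node venules, RAI2 (0.198), MARK1 (0.223), a kinase of microtubule-associated proteins, and CD72 (0.275), a coreceptor of B cells that lies on chromosome 9 as well. For DMRT3 they were CHST4 (0.153), MARK1 (0.208), RAI2 (0.236) and RSPO2 (0.279), a secreted activator of WNT signalling. CHST4 had 0.521 and 0.514 CPM in RPMI-8226 and 18.2 and 20.4 CPM in RPMI-8226-R, the same kind of step as DMRT1. The other genes of the block were much less alike: KANK1 was at 0.930 from DMRT1, DMRT2 at 1.22, SMARCA2 at 1.80 and DOCK8 at 2.36. The measure is a description over 6 libraries that share 3 sources.

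Other annotated genes between DOCK8 and SMARCA2 added little signal. There were 18, mostly pseudogenes, antisense and small RNA genes, and 15 of them had no read in any library. DOCK8-AS1, which overlaps the start of DOCK8 on the opposite strand, was the 1 gene with a mean of at least 10 reads in a line. It had 24 and 19 reads in the libraries labelled NCI-BL2171, 11 and 22 in RPMI-8226 and 16 and 34 in RPMI-8226-R; the RPMI lines overlapped, and it did not pass the test (log2 0.48 ± 0.51, edgeR adjusted p = 0.426). Whether the counting used strand is not given in the sources used here, so reads of DOCK8-AS1 and of DOCK8 may be mixed. The remaining 2 had at most 8 reads in a library.

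To see how far the difference extends, all other protein-coding genes that start in the first 10 Mb of chromosome 9 were tested between RPMI-8226-R and RPMI-8226. Of 35 such genes 23 passed the low-count filter, of which 6 were higher in RPMI-8226-R, 8 were lower and 9 did not pass the edgeR test. As shares of the genes tested these were 26.1% higher and 34.8% lower, beside 33.4% higher and 38.7% lower among all 13943 protein-coding genes, 72.1% of which passed (65.6% of all genes). The median log2 difference was -0.17 for the neighbours and -0.07 for all protein-coding genes. On log2(TPM + 1) with limma-trend the split was 8 higher and 2 lower, and that of all genes tested also moved, from 43.4% of calls higher in counts to 60.7%. In the first 5 Mb, 2 of 12 genes tested were higher and 3 lower. Further along the chromosome, 38 of 112 genes between 10 and 43 Mb were higher and 39 lower, and beyond 43 Mb 163 of 421 were higher and 139 lower.

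The nearest tested genes outside the block were mixed. ZNG1A, a GTPase of the family that delivers zinc to proteins, lies on the telomeric side and had 28.9 and 28.7 CPM in RPMI-8226 and 34.6 and 30.2 CPM in RPMI-8226-R (log2 0.17 ± 0.10, edgeR adjusted p = 0.132). The call came with the RPMI-8226-R library 2 left out (0.26), with the 2 lines alone in the fit (0.26) and on log2(TPM + 1) (0.51). On the other side of SMARCA2, VLDLR, a receptor for lipoproteins and reelin, had 19 and 16 reads in RPMI-8226 and 3 in each RPMI-8226-R library (log2 -2.59 ± 0.68). It passed the low-count filter through RPMI-8226 alone, which fixed the direction of a difference, so no p-value is given for it. VLDLR is counted among the lower genes, a call that was lost with the effective-length offset (-1.92) and on log2(TPM + 1) (-0.13). PUM3, an RNA-binding protein of the nucleolus, comes next among the genes tested and rose from 13.6 and 13.8 CPM to 37.6 and 36.4 CPM (log2 1.43 ± 0.10, edgeR adjusted p = 4.4e-11), so a gene with a rise as large as that of KANK1 lay beyond SMARCA2 as well.

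A further 3 neighbours changed at least 2-fold. RANBP6, of the importin family, rose from 13.8 and 14.1 CPM to 32.98 and 40.08 CPM (log2 1.39 ± 0.11, edgeR adjusted p = 6.3e-10). The genes for the 2 ligands of the receptor PD-1 lie next to each other and moved in opposite directions. CD274, which encodes PD-L1, fell from 6.47 and 6.21 CPM to 2.89 and 2.39 CPM (log2 -1.26 ± 0.26, edgeR adjusted p = 2.7e-04). PDCD1LG2, which encodes PD-L2, rose from 4 and 0 reads to 24 and 21 reads (log2 3.33 ± 0.82). It passed the low-count filter through RPMI-8226-R alone, which fixed the direction of a difference. No p-value is therefore given for it, though it is counted among the higher genes. Its fitted value rests on the few reads of RPMI-8226: it was 7.44 without library 1 of that line, which leaves 0 reads there, 2.40 without library 2, and 0.43 on log2(TPM + 1). Below 2-fold, RCL1 (0.84), RIC1 (0.63) and KIAA2026 (0.91) were higher by log2 difference, and WASHC1 (-0.50), RFX3 (-0.68), PLGRKT (-0.74), ERMP1 (-0.72), UHRF2 (-0.88) and KDM4C (-0.35) were lower. Of these, KIAA2026 (0.21) and WASHC1 (-0.42) lost their calls with the length offset, which put RFX3 at -1.33. WASHC1 also lost its call with the RPMI-8226-R library 1 (-0.32) or the RPMI-8226 library 2 (-0.41) left out, and KDM4C with the RPMI-8226 library 1 left out (-0.30). GLIS3, PLPP6, CDC37L1, AK3, JAK2, DMAC1 and PTPRD did not pass, though GLIS3 (-2.65) and AK3 (-0.33) did with the length offset and PLPP6 (0.52) and DMAC1 (0.50) on log2(TPM + 1). PLPP6 also passed with DESeq2 size factors (0.42) and with the 2 lines alone in the fit (0.46). On log2(TPM + 1) WASHC1, RFX3, ERMP1, UHRF2, KIAA2026 and KDM4C lost their calls, and KDM4C did with the DESeq2 Wald test (-0.30).

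**Figure D3:**
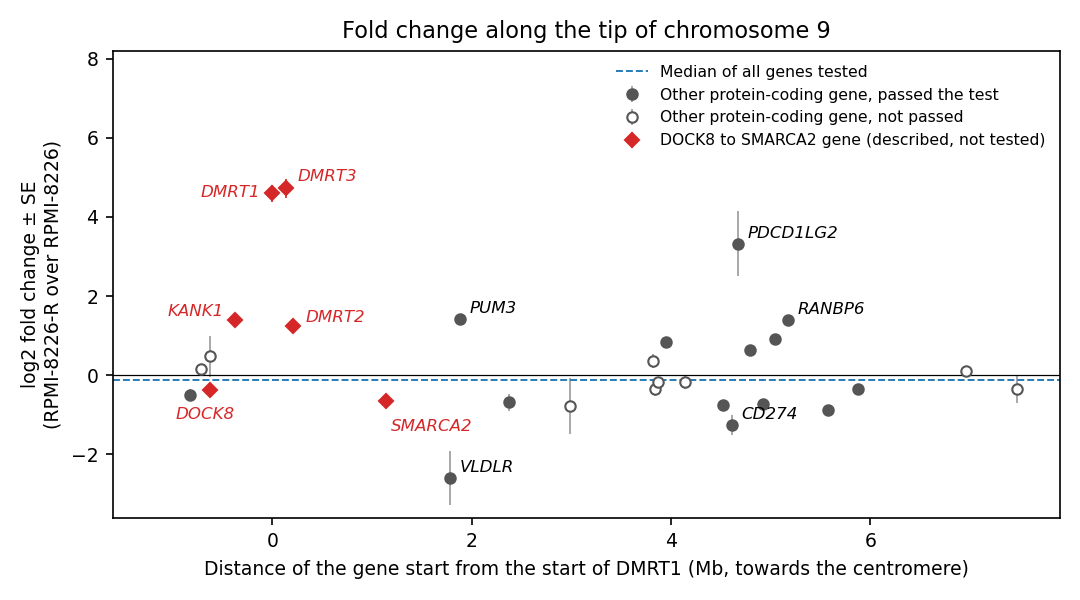
Log2 fold change ± SE (RPMI-8226-R over RPMI-8226, edgeR) of the 6 genes (diamonds, described and not tested) and of the 23 other protein-coding genes tested in the first 10 Mb of chromosome 9 (filled circles passed, open circles did not), against the distance of the gene start from that of DMRT1 in Mb; the dashed line is the median of all genes tested. DMRT1 at 4.60 and DMRT3 at 4.72 lie above the neighbours with all libraries in the fit, the nearest being PDCD1LG2 at 3.33, which goes to 7.44, above both, when RPMI-8226 library 1 is left out.

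The DM domain genes outside the cluster did not share the higher level. DMRTA1, which lies further along the same chromosome arm (chr9:22446841-22455740), was expressed in RPMI-8226 with 196 and 181 reads and had 7 and 19 reads in RPMI-8226-R and 0 in the libraries labelled NCI-BL2171. It fell from 7.22 ± 0.0938 to 0.459 ± 0.282 CPM (log2 -3.95 ± 0.35), while DMRT1 and DMRT3 were higher in the same libraries. DMRTA1 passed the low-count filter through RPMI-8226 alone, which fixed the direction of a difference, so no p-value is given for it. Without RPMI-8226-R library 2 it was at -4.77. DMRTA2, DMRTC1, DMRTC1B and DMRTC2 had no read in any library, and DMRTB1 had reads only in those labelled NCI-BL2171 (4 and 2).

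Genes of gonad development, the programme in which DMRT1 acts, moved both ways. Of 28 listed genes 18 were tested, with 4 higher in RPMI-8226-R, 8 lower and 6 that did not pass, 3 of which had no read in either RPMI line. The median log2 difference was -0.11, beside -0.12 over all genes tested, of which 28.5% were higher and 37.2% lower. Among all protein-coding genes tested 33.4% were higher and 38.7% lower, with a median of -0.07. The 3 listed genes without a read in either RPMI line (ZFPM2, INHA and PTGDS) enter the list median with a fitted value of 0. They pull it towards 0, so its closeness to these medians is not read as a likeness. The mean of the list was -0.79. EMX2, a homeobox gene of the urogenital ridge (6 and 2 reads against 32 and 36, log2 2.96 ± 0.63), and INHBB, a subunit of inhibin and activin (8 and 12 reads against 46 and 72, log2 2.44 ± 0.48), had the largest rises in counts. EMX2 was at 3.87 without RPMI-8226 library 1. WNT4, which acts in the ovary, fell from 88 and 82 reads to 1 and 0, a ratio of 182 (95% interval of the counts 32.2 to 7220). NR5A1, the steroidogenic factor of the gonad and adrenal, fell from 21 and 28 reads to 1 and 0, a ratio of 52.4 (95% interval 8.98 to 2110). EMX2 and INHBB passed the low-count filter through RPMI-8226-R alone, and WNT4 and NR5A1 through RPMI-8226 alone. That fixed the direction of each difference, so no p-values are given for these genes, though they are counted above. Gonadal and germ cell markers (8 genes) summed to between 1.49 and 2.15 TPM in RPMI-8226 and between 3.36 and 6.35 TPM in RPMI-8226-R, where DDX4, DAZL, STRA8 and INHA were at 0. Most of that sum was AMH, the anti-Müllerian hormone of Sertoli and granulosa cells (1.41 and 0.922 TPM in the parental libraries, 3.11 and 5.98 TPM in those of the derivative). The other 7 markers summed to between 0.572 and 0.732 TPM in the parent and between 0.248 and 0.365 TPM in the derivative, the opposite direction. AMH was singled out after its values were seen.

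Genes of the SWI/SNF complexes, in which the SMARCA2 protein is an ATPase, were counted next. Of 28 genes 27 were tested, with 17 higher, 5 lower and 5 that did not pass, and a median of 0.31, beside 33.4% higher, 38.7% lower and a median of -0.07 among all protein-coding genes. On log2(TPM + 1) with limma-trend 18 were higher and 2 lower, on a scale where 60.7% of the calls over all genes were higher. SMARCA4, the gene of the alternative ATPase, rose from 215.4 ± 2.34 to 257.1 ± 11.8 CPM (log2 0.26 ± 0.06, edgeR adjusted p = 0.00103), while SMARCA2 was lower in counts and at 0.02 on log2(TPM + 1). ARID1A, a subunit that defines the canonical BAF complex, rose from 50.6 ± 1.03 to 180.6 ± 16.8 CPM (log2 1.84 ± 0.08, edgeR adjusted p = 2.1e-14), and BICRAL, a subunit of the noncanonical complex, rose by 1.37 ± 0.12 (edgeR adjusted p = 3.0e-09). SMARCD3, a subunit known from heart and muscle, fell from 1.77 ± 0.131 to 0.0891 ± 0.0210 CPM (log2 -4.23 ± 0.43, edgeR adjusted p = 2.2e-08), and DPF3, another muscle-associated subunit, changed by -1.76 ± 0.19 (edgeR adjusted p = 5.2e-08). With the length offset they were at -4.92 and -2.40.

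The relatives of DOCK8 and KANK1 are read against the same shares over all protein-coding genes, 33.4% higher and 38.7% lower. A list of 16 genes held the DOCK family, CDC42 and other genes linked to DOCK8, among them STK4 and MYD88. Of these 14 were tested, with 10 higher and 4 lower and a median of 0.48, and on log2(TPM + 1) 9 were higher and 2 lower. DOCK11, an exchange factor for CDC42 like DOCK8, rose from 2.10 ± 0.443 to 10.4 ± 0.435 CPM (log2 2.31 ± 0.19, edgeR adjusted p = 6.3e-10), and MYD88, an adaptor of Toll-like receptors, rose by 1.51 ± 0.11 (edgeR adjusted p = 1.5e-10). DOCK4 (-1.28 ± 0.15, edgeR adjusted p = 1.8e-07) and DOCK10 (-0.98 ± 0.11, edgeR adjusted p = 8.1e-08) were lower, the latter call being lost on log2(TPM + 1) at -0.41. Of 13 genes of the KANK family and its cortical partners 11 were tested, with 6 higher, 1 lower and 4 that did not pass, and a median of 0.33, and on log2(TPM + 1) 6 were higher and 0 lower, and with the length offset 4 higher and 1 lower. ERC1 (1.16 ± 0.11, edgeR adjusted p = 1.1e-08), a scaffold of the cortical complex, and KIF21A (0.96 ± 0.09, edgeR adjusted p = 3.2e-09), a kinesin that KANK1 binds, had the largest rises in counts. With the length offset ERC1 was at 0.66, below CLASP1 at 0.90, and on log2(TPM + 1) at 0.79 against 1.09. PHLDB1 was lower (-0.77 ± 0.19, edgeR adjusted p = 0.00121), a call lost on log2(TPM + 1) at -0.17.

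**Figure D4:**
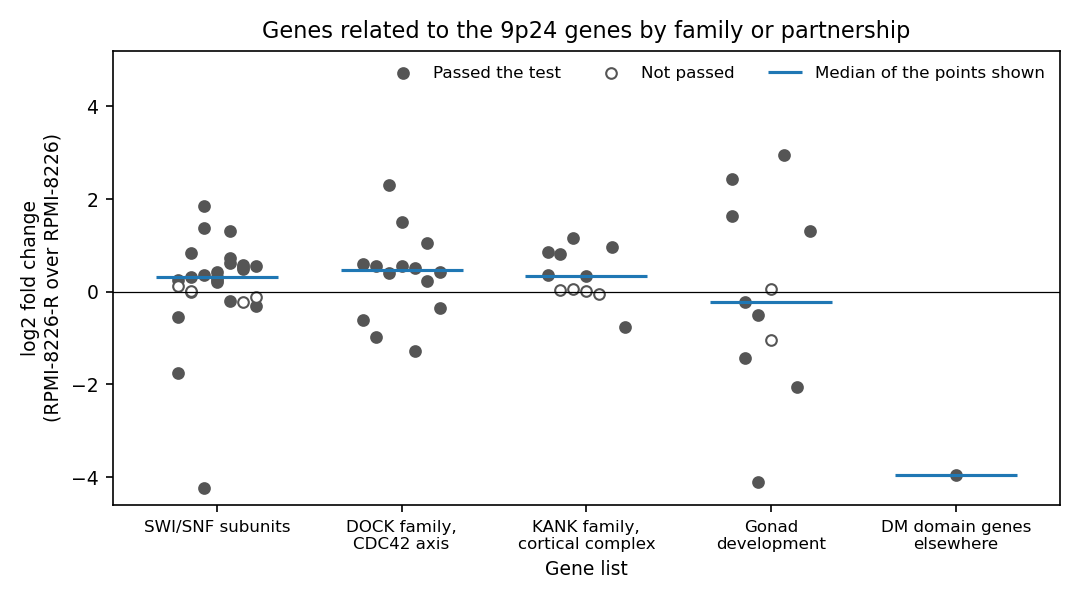
Log2 fold change (RPMI-8226-R over RPMI-8226, edgeR) of the genes related to the 6 by family or partnership, 1 point for a gene, filled where it passed the test and open where it did not, with a line at the median of the points shown; genes with 3 reads or fewer in all in either RPMI line are left out, which leaves 11 of the gonad development genes. WNT4 and NR5A1, the largest falls among the gonad development genes, are left out, whereas the rises EMX2 and INHBB are shown. The median drawn for that list is therefore not the median of all its tested genes. Points of each list but the last lie on both sides of 0, and DMRTA1 is the single DM domain gene outside the cluster, at -3.95.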

How the data were processed

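Total RNA of 6 untreated libraries was depleted of ribosomal RNA and sequenced, per the labels. The authors deposited 1 table for each library with an estimated count of reads, TPM, length and effective length of each gene, per the file headers. The deposited TPM values are levels corrected for length, and the deposited lengths are another unit, in bases; they served for levels set beside each other and for an offset. Per the submitters' processing notes the authors worked on GRCh38.p13. The sources used here name no quantifier and no annotation. Each table held 61544 genes; 46 pseudoautosomal copies were added to their X copies, which left 61498, of which 61399 matched a symbol and 58298 a GENCODE 29 position. All 6 genes matched a promoter window of RefSeq.

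Estimated counts (2.28% not whole) were rounded to whole numbers. The test was the robust quasi-likelihood test of edgeR 4.0.16 (R 4.3.3), two-sided, on TMM-scaled counts. Genes entered it by filterByExpr, with a minimum count of 10 and a total of 15. All 6 libraries shared the fit, which left 3 residual degrees of freedom. P-values were adjusted (Benjamini-Hochberg, threshold 0.05) across 20081 genes. The typical biological coefficient of variation was 6.81%. Other settings tried were size factors of DESeq2 1.42.0, the DESeq2 Wald test, limma-trend of limma 3.58.1 on log2(TPM + 1), an effective-length offset, no filter, only the 2 lines compared, each library left out, and the replicate number as a block; for the 6 genes also log2(TPM + 0.1), and for the neighbours a window of 5 Mb. The procedure was tested on simulated data, where the share of false calls was above the nominal rate. The mean chi-square value over genes, between libraries of 1 line, was above what copies would give in each line. It was 3.344 for RPMI-8226, 5.188 for NCI-BL2171 and 10.21 for RPMI-8226-R. The fit shares 1 estimate of the spread over the lines and does not allow for a wider spread in RPMI-8226-R.

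The 6 genes, the lists of related genes and the markers were chosen with earlier results of these data known. The text names the 6 genes; neighbours that passed the filter, with values for the nearest and for changes of at least 2-fold; genes inside the block with a mean of at least 10 reads; from each list at most 2 rises and 2 falls, with DMRTA1, DMRTA2 and SMARCA4; and the 5 genes most like DMRT1 and DMRT3. Genes of the Y chromosome were not named. A gene without a read in a line was set against a floor of 3 counts for each library, and for 1 to 3 counts a ratio with a 95% interval is given; both cover counting error only.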

Additional observations from a re-analysis of the deposited data

How the results depend on the processing

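With 2 libraries for a line, differences near the spread between libraries cannot be resolved, and genes with a few reads, such as DMRT1 and DMRT3 in RPMI-8226, have imprecise ratios. Between RPMI-8226-R and RPMI-8226 the effective-length offset gave DOCK8 -1.03, KANK1 0.73, DMRT3 5.04, DMRT2 1.11 and SMARCA2 -0.29. On log2(TPM + 0.1) DOCK8 was at -0.69, KANK1 at 1.04, DMRT2 at 1.43 and SMARCA2 at 0.02, and on log2(TPM + 1) KANK1 was at 0.85, DMRT1 at 3.06, DMRT3 at 3.01 and SMARCA2 at 0.02, which turned the sign for SMARCA2. The cause was not tested. Leaving out each library gave DOCK8 between -0.47 and -0.26, KANK1 between 1.28 and 1.53, DMRT1 between 4.49 and 4.71, DMRT3 between 4.63 and 4.81, DMRT2 between 1.18 and 1.32, and SMARCA2 between -0.76 and -0.54.

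Of the neighbours, 5 passed in the window of 5 Mb, which holds fewer genes, and 2 were lower on log2(TPM + 1). On that scale 2 genes of the SWI/SNF list, 2 of the DOCK list and 0 of the KANK list were lower, and without a filter 2 of the KANK list were. Leaving out each library gave between 13 and 15 neighbours past the threshold. Genes past the threshold numbered between 11524 and 12921 for RPMI-8226-R against RPMI-8226 and between 14229 and 15772 for RPMI-8226 against NCI-BL2171. With the replicate number as a block they numbered 13045 and 15295, beside 13177 and 15401 without. Deviations of libraries with the same number correlated across genes at 0.033, -0.004 and 0.013, so no shared effect of the number was seen. That cannot show whether libraries with the same number were prepared together. In all, 274 of the recomputed values for the main results were labelled the same as the main value, 17 moved and 2 changed sign. The label allows a tolerance and does not mean equal. For RPMI-8226-R against RPMI-8226, 11425 genes passed with the effective-length offset beside 13177, and this was labelled the same.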
